A study of Gallus gallus with 9 samples.

Results

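The genes described here belong by symbol to families of proteins that hold neighbouring cells together: cadherins and protocadherins, the catenins that bind them, desmosomal proteins, claudins, and the scaffold and tricellular proteins of tight junctions. They were taken from the gene symbols of the FPKM table: symbols that begin with *CDH* or *PCDH* followed by a digit or letter, *CLDN*, *TJP*, *CTNN*, *DSG*, or *DSC* followed by a digit, together with *OCLN*, *DSP*, *MARVELD2* and *ILDR1*. The tip-link genes *CDH23* and *PCDH15* were left out, and no row carried the symbol *OCLN* or a *DSC* symbol. This gave 66 of 24880 genes. FPKM counts the fragments of a gene relative to its length and to all fragments of the library, and 50 members reached a mean FPKM of 1 or more in some region and were tested among 13045 such genes. The tissue was the basilar papilla, the hearing organ of the chicken (*Gallus gallus*), which was cut into apex, middle and base. All birds were untreated, at post-hatch day 1, and neither strain nor genotype was given. Each region had 3 replicates, so there were 9 RNA-seq libraries, and each replicate pooled 8 cochleas of 4 chickens, so the spread between birds was not measured.

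Classical cadherins span the membrane and bind the same or similar cadherins on the next cell, while inside the cell beta-catenin and p120-catenin bind their tails and alpha-catenin connects them to actin. Claudins form the strands of tight junctions, which seal the space between epithelial cells or make it selectively permeable to ions, and the TJP (ZO) proteins anchor these strands to the cytoskeleton. In the inner ear, tight junctions at the apical surface of hair cells and supporting cells separate potassium-rich endolymph from the fluid that bathes the cell bodies, and human deafness is known for *CLDN14*, *MARVELD2* and *ILDR1*. Members are described in the order of these roles, beginning with claudins.

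The pieces held several tissues, and the marker lists below give the summed FPKM of each list in each library. The hair cell list (13 of 14 symbols found, all 13 tested) reached 438, 569.9 and 518 in the apex, 275, 690.0 and 456 in the middle and 96.9, 239 and 164 in the base. Parvalbumin, *PVALB*, which neurons also express, made up much of the replicate 2 sums, with 10.8, 261 and 9.69 FPKM in the apex, 48.7, 519 and 138 FPKM in the middle and 17.8, 176 and 17.7 FPKM in the base. Without it, a check added after the values were seen, the hair cell sums were 427, 309 and 508 in the apex, 227, 171 and 318 in the middle and 79.1, 63.7 and 147 in the base, and replicate 2 was then the lowest library of each region instead of the highest. Sums of the general epithelium list were 303, 258 and 321 in the apex, 273, 156 and 294 in the middle and 156, 159 and 227 in the base, and 4 of its 9 genes tested rose in apex over base. Schwann cell sums were 1288, 1661 and 1094 in the apex, 1215, 1668 and 1179 in the middle and 638, 729 and 713 in the base, with 5 of 6 genes tested higher in the apex. Cartilage sums were 8671, 6732 and 6836 in the apex, 11605, 9667 and 8861 in the middle and 16842, 14446 and 12874 in the base, with 4 of 6 lower in the apex. Cochlear ganglion neuron sums lay between 1386 and 4105 in the libraries of replicate 2 and between 392 and 1093 in the other 6 libraries. *KRT18*, *COL1A1* and *PRPH* of these lists and of the mesenchyme list were listed at 0 in all libraries, as was the widely used gene *ACTN4*, so a value of 0 in this table may not mean absence of the mRNA. Relative fragment number, estimated from the steps between low values, differed by up to 1.61 times between libraries and is approximate. In such bulk pieces, fewer cells of a type and less RNA per cell cannot be told apart.

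Between apex and base, 15 of the 50 genes tested were differentially expressed (30%), 10 higher and 5 lower in the apex, against 11.8% of all 13045 genes tested (7.15% higher and 4.66% lower). A gene was called when its adjusted p from limma was under 0.05 and its mean FPKM differed by 1.5 times or more. The median log2 fold change of the 50 genes was 0.12, against -0.01 for all genes tested. The genes called higher were *CLDN8*, *CLDN17*, *CLDN23*, *CLDN2*, *CLDN19*, *CLDN1*, *CDH8*, *CDH12*, *PCDH17* and *DSG2*, and those called lower were *CLDN11*, *CDH11*, *CDH19*, *PCDH8* and *PCDHGC3*. With the replicate number as a block, *CLDN3*, *ILDR1*, *CDH10* and *PCDHA3* were called as well, which gave 14 higher and 5 lower, against 15.1% of all genes in that fit (9.57% higher and 5.49% lower). The 3 apex libraries all lay above the 3 base libraries for 21 of the 50 genes (20.7% of all genes tested) and all below them for 13 (22% of all genes). The number of calls was 6 without apex 3, 5 without base 1 and 6 without base 2, where 8.44%, 7.63% and 8.77% of all genes tested were called. It was between 10 and 14 without apex 1, apex 2 or base 3 (10.4% to 11.9% of all genes) and 17 without middle 2 (12.9%). No fit that left out libraries held the block. With all 9 libraries and the block, adjusted p of the 15 genes ranged from 6.76e-05 (*CLDN8*) to 0.0130 (*PCDH17*). *CLDN2*, *CLDN11*, *CLDN19* and *CDH12* were called in each of the 9 fits without one library, though *CDH12* reached 1 FPKM only in the apex. Leaving out a whole replicate number ended calls of each of these genes. Without number 1, *CLDN2*, *CLDN19* and *CDH12* were not called, without number 2 *CDH12*, and without number 3 *CLDN11*, *CLDN19* and *CDH12*. Of all genes tested, 4.76%, 9.55% and 7.1% were called in these fits. Without number 1, 0 members and 243 of all genes were called higher. None of the 15 calls was kept in all 3 fits. Quantile normalization ended the calls of *CDH19*, *CLDN23*, *PCDH17* and *PCDHGC3*, median-ratio scaling that of *PCDHGC3*, and a fit without a filter on low values those of *CLDN1* and *DSG2*. *CDH12* was not tested when 1 FPKM was required in 6 libraries. Some alternatives added calls: *CDH10* without a filter on low values or without the intensity trend, and *PCDH19* under quantile normalization. *CLDN3* and *ILDR1* were added with only the 6 libraries compared or without middle 2, and *CLDN3* without replicate number 2.

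**Figure D1:**
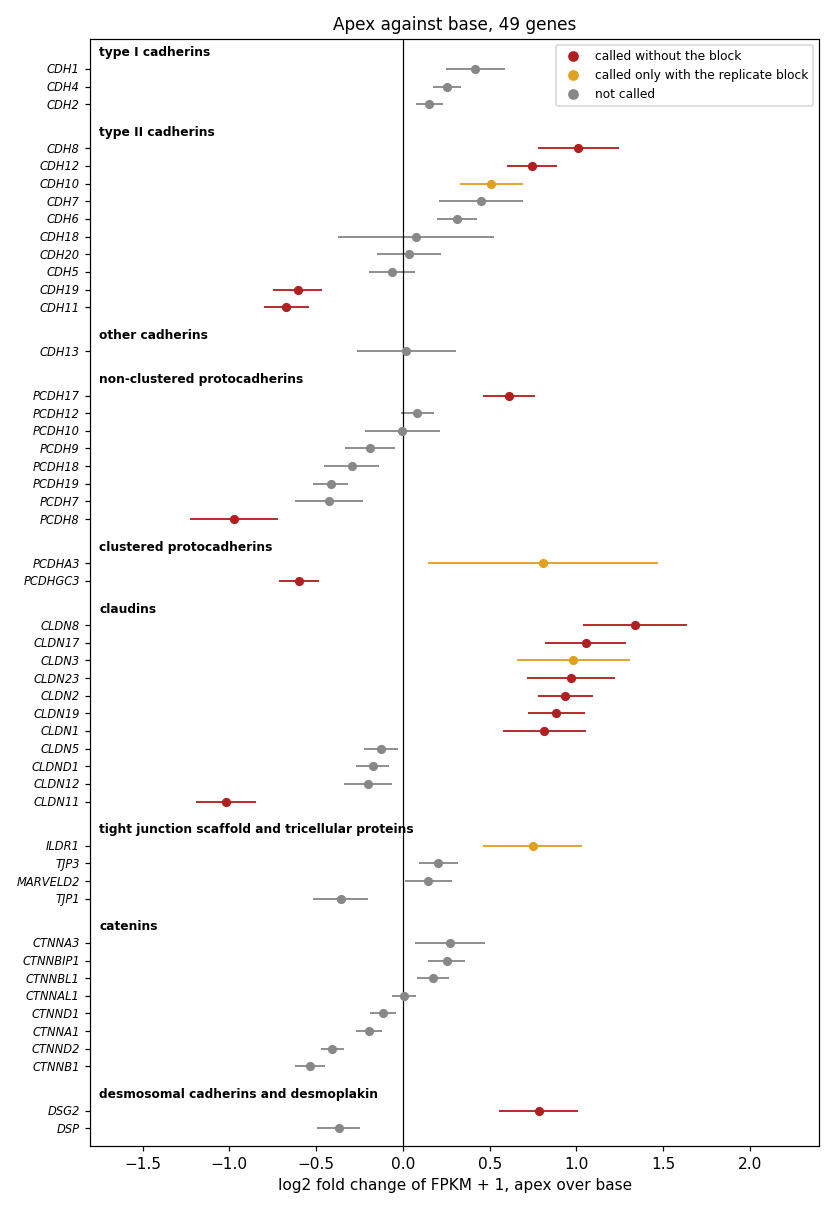
Log2 fold change of FPKM + 1 in apex over base for 49 of the 50 genes tested, ordered by family; points are estimates from limma and bars are 1 SE. The red points are the 15 genes called without the block (10 to the right of 0 and 5 to the left), the yellow points the 4 called only with it, and 6 of the red points to the right are claudins.

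Claudins were the family with the most calls. Of 18 claudin genes, 11 were tested, and 6 rose and 1 fell in apex over base (63.6% called, against 11.8% of all genes tested), with a median log2 fold change of 0.88. Their summed FPKM per library was 762, 754 and 734 in the apex, 726, 635 and 722 in the middle and 586, 572 and 659 in the base, so that the 3 apex libraries lay above the 3 base libraries, and the ratio of apex over base was 1.24 ± 0.0990 SD. All 18 were grouped by the *CLDN* prefix alone, so some of their products may not form tight junction strands. *CLDND1*, which this prefix also takes in, made up 10.5 to 16.9% of the summed FPKM of a library. The 7 genes called ranged in mean FPKM over the 9 libraries from 1.65 (*CLDN17*) to 174 (*CLDN19*). The direction was opposite for *CLDN19* and *CLDN11*, whose proteins are both known from myelin in mammals.

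*CLDN19* encodes a claudin of Schwann cell myelin and of the kidney tubule in mammals, and it had the highest claudin level of the table (ENSGALG00000023580, chr21:6395182-6397256). It had 195, 267 and 181 FPKM in the apex, 167, 229.8 and 185 FPKM in the middle and 102, 124 and 118 FPKM in the base. All apex and middle libraries lay above all base libraries, and replicate 2 was the highest of each region. The log2 fold change of apex over base was 0.88 ± 0.17 SE, adjusted p = 0.00731, and the ratio of mean FPKM was 1.87. The Schwann cell list was higher in the apex and middle as well, as given above, and its part in the difference was not tested.

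*CLDN11* encodes the claudin of oligodendrocyte myelin and of the basal cells of the mammalian stria vascularis, and its loss causes deafness in mice (ENSGALG00000009355, chr9:19861753-19870101). It had 57.2, 68.1 and 62.3 FPKM in the apex, 80.6, 56.4 and 52.1 FPKM in the middle and 130.1, 107 and 148 FPKM in the base. The base libraries lay above every apex and middle library, while apex and middle overlapped. It fell in apex over base with the most negative log2 fold change of the members, -1.02 ± 0.17 SE, adjusted p = 0.00469, and a ratio of 0.487. In the apex its level was 62.5 ± 5.47 FPKM against 214 ± 45.8 FPKM for *CLDN19* (SD, n = 3 each), whereas in the base the levels overlapped, at 128 ± 20.4 FPKM and 114 ± 11.5 FPKM.

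*CLDN8*, *CLDN3* and *CLDN1* encode claudins that seal epithelia in mammals. *CLDN8* (ENSGALG00000015841, chr1:104409441-104410115) had 59, 43.9 and 70.4 FPKM in the apex, 50.4, 30.6 and 67.9 FPKM in the middle and 21.6, 16.9 and 28.4 FPKM in the base. Its log2 fold change of apex over base, 1.34 ± 0.30 SE, adjusted p = 0.0147, was the largest of the members, and the ratio of mean FPKM was 2.59. *CLDN1* (ENSGALG00000026862, chr9:13990203-14000682) had 121, 102 and 124 FPKM in the apex, 109, 61.1 and 114 FPKM in the middle and 59.7, 56 and 82.4 FPKM in the base, and rose in apex over base (log2 fold change 0.81 ± 0.24 SE, adjusted p = 0.0404). For both genes the apex libraries lay above the base libraries, and the middle library of replicate 2 was the lowest of its region. *CLDN3* (ENSGALG00000022557, chr19:657606-776272) had 93.3, 66.4 and 90.3 FPKM in the apex, 83.5, 35.9 and 85.5 FPKM in the middle and 38.3, 34.2 and 53.4 FPKM in the base, with a log2 fold change of 0.98 ± 0.32 SE, adjusted p = 0.0618, and it was called with the replicate block (adjusted p = 0.00522). The locus given for *CLDN3* is shared with other genes in the table, and the library kit did not mark the strand, so reads of overlapping genes may not have been separated. The epithelium list was higher in the apex and low in middle 2, at 273, 156 and 294 in the middle libraries, and its part in these differences was not tested. *CLDN8* missed the threshold without apex 3, base 1 or base 2 (adjusted p up to 0.0570), and *CLDN1* without apex 1, apex 2, apex 3, base 1 or base 2 (up to 0.129). *CLDN3* was called without middle 2.

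*CLDN2* and *CLDN17* encode claudins that form channels in mammalian epithelia, *CLDN2* for cations and water and *CLDN17* for anions. *CLDN2* (ENSGALG00000007311, chr4:10991217-10993740) had 3.82, 4.02 and 3.58 FPKM in the apex, 3.83, 5.14 and 3.48 FPKM in the middle and 1.65, 1.1 and 1.85 FPKM in the base, and the base libraries lay below all others. It rose in apex over base (log2 fold change 0.94 ± 0.16 SE, adjusted p = 0.00457) with a ratio of 2.48. *CLDN17* (ENSGALG00000044073, chr1:104396470-104397405) had 2.8, 2.18 and 3.06 FPKM in the apex, 0.913, 1.19 and 2.37 FPKM in the middle and 0.637, 0.568 and 1.14 FPKM in the base, and rose by the highest ratio of the claudins, 3.43 (log2 fold change 1.05 ± 0.23 SE, adjusted p = 0.0139). Its neighbour on chromosome 1 is *CLDN8*, 12.0 kb away with no gene between them, and its level was far lower in every library. *CLDN23* (ENSGALG00000042123, chr4:49904521-49905204) had 4.65, 3.51 and 5.34 FPKM in the apex, 5.23, 2.2 and 5.12 FPKM in the middle and 1.6, 1.73 and 2.04 FPKM in the base, with a log2 fold change of 0.97 ± 0.25 SE, adjusted p = 0.0271. For *CLDN17* and *CLDN23* the apex libraries lay above the base libraries, and the middle libraries overlapped the apex for both genes. *CLDN17* missed the threshold without apex 3, base 1 or base 2 (adjusted p up to 0.0548), and *CLDN23* without apex 1, apex 3, base 1 or base 2 (up to 0.0946).

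**Figure D2:**
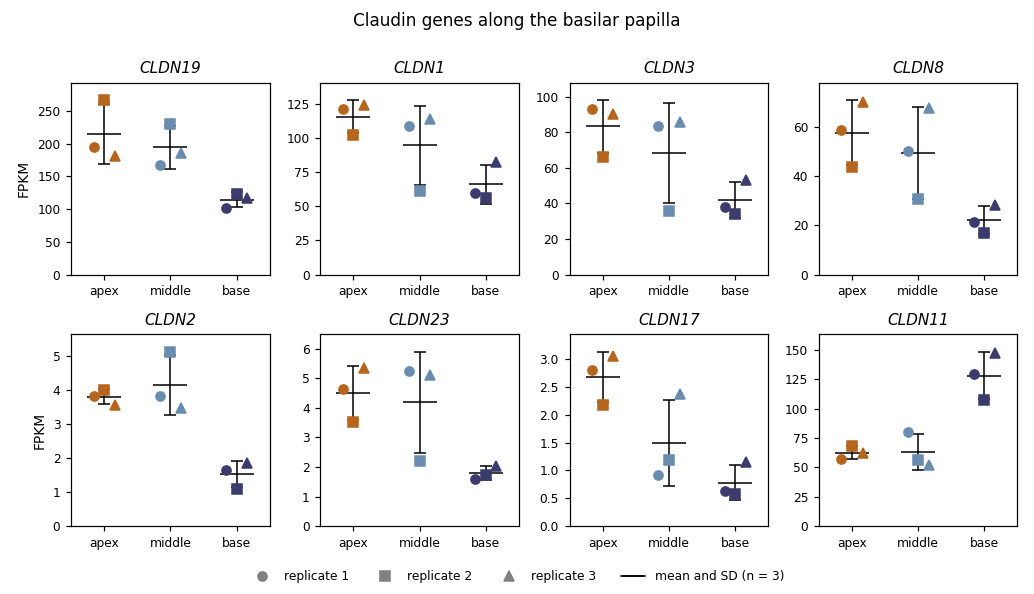
FPKM of 8 claudin genes in apex, middle and base; symbols mark the replicates, and black bars show the mean and SD of 3 libraries. The apex libraries lie above the base libraries in the first 7 panels and below them for *CLDN11*, and the middle square (replicate 2) is the lowest middle library for *CLDN1*, *CLDN3*, *CLDN8* and *CLDN23*.

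*CLDN5*, the claudin of endothelial tight junctions, was the second in level and did not pass the test. It had 133, 102 and 105 FPKM in the apex, 118, 116 and 109 FPKM in the middle and 121, 121 and 127 FPKM in the base, and apex and base overlapped (log2 fold change -0.13 ± 0.10 SE, adjusted p = 0.401). The endothelium list, at 125, 114 and 113 in the apex, 116, 108 and 99.9 in the middle and 117, 118 and 119.7 in the base, had 0 of 7 genes called in apex over base by limma without or with the block (1 with an unadjusted p under 0.05). *CLDND1* and *CLDN12* likewise were not called, with log2 fold changes of -0.17 and -0.20. As shares of summed claudin FPKM, *CLDN19* took 28.5, 28.3 and 18.9% in apex, middle and base, *CLDN1* 15.4, 13.5 and 10.8%, *CLDN8* 7.72, 7.06 and 3.65%, *CLDN11* 8.34, 9.07 and 21.1% and *CLDN5* 15.1, 16.5 and 20.4%, each a mean over 3 libraries. The claudin with the largest share was *CLDN19* in the apex and the middle and *CLDN11* in the base, where those of *CLDN5* and *CLDN19* were close to it. The other 7 claudin genes had mean FPKM below 1 in every region. They include *CLDN14*, a claudin whose loss causes human deafness, which had 0, 0 and 0.325 FPKM in the apex, 0.953, 0.328 and 0.829 FPKM in the middle and 0.320, 0.357 and 1.07 FPKM in the base, and *CLDN18*, which was listed at 0 in all libraries.

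**Figure D3:**
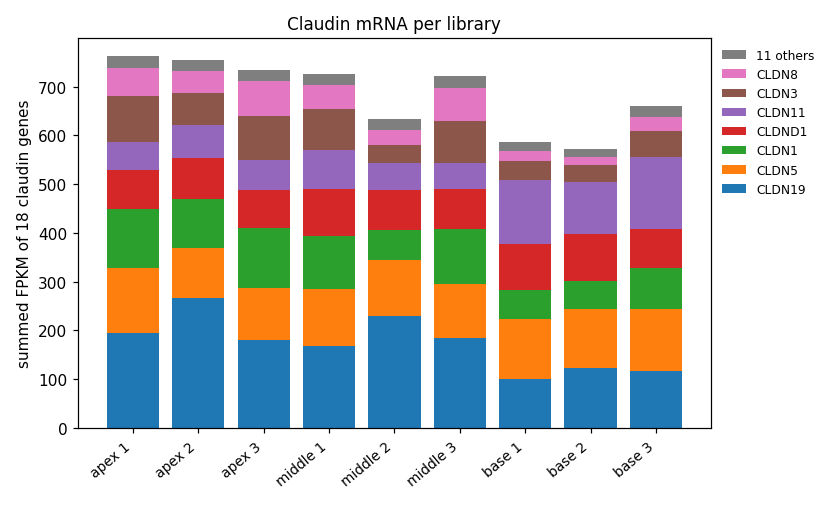
Summed FPKM of the 18 claudin genes in each library, stacked by gene, with the 11 lowest genes joined. The stacks reach 734 to 762 in the apex and 572 to 659 in the base, and the *CLDN11* segment is thicker in the 3 base libraries than in the other 6.

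For scaffold and tricellular proteins of tight junctions, 5 genes were tested. Without the block none was called in apex over base (limma, where 2 had an unadjusted p under 0.05), against 11.8% of all genes tested. With the block *ILDR1* was called, against 15.1% of all genes. Summed FPKM of the 5 genes was 138, 148 and 140.2 in the apex, 132, 139 and 140.3 in the middle and 130.0, 128 and 149.9 in the base. The ratio of these sums in apex over base was 1.05 ± 0.101 SD. *TJP1* (ZO-1, ENSGALG00000042552, chr10:5963381-6117896) had 46.3, 61.4 and 46.2 FPKM in the apex, 41.7, 60.8 and 43.5 FPKM in the middle and 61.6, 64.9 and 70.1 FPKM in the base, so the base libraries lay above the apex libraries (log2 fold change -0.36 ± 0.16 SE, adjusted p = 0.143). *TJP3* (ZO-3), lower at a mean of 6.58 FPKM, had a log2 fold change of 0.20 ± 0.11 SE, adjusted p = 0.232.

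Both tricellular genes were expressed in every library. *ILDR1* encodes angulin-2, which marks the corners where 3 epithelial cells meet (ENSGALG00000015136, chr1:83212638-83226401). It had 3.75, 3.35 and 5.03 FPKM in the apex, 4.43, 1.89 and 5.08 FPKM in the middle and 1.38, 2.09 and 2.59 FPKM in the base, with every apex library above every base library and a ratio of 2. The log2 fold change was 0.75 ± 0.29 SE, adjusted p = 0.0974, and the adjusted p with the block was 0.0307; *ILDR1* was called as well without middle 2. *MARVELD2* encodes tricellulin, which angulins recruit to these corners (ENSGALG00000027140, chrZ:73005632-73011865). It had 10.3, 8.25 and 10.2 FPKM in the apex, 9.95, 7.47 and 9.62 FPKM in the middle and 7.8, 8.14 and 9.78 FPKM in the base, apex and base overlapped, and the log2 fold change was 0.15 ± 0.13 SE, adjusted p = 0.479.

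Of the type I cadherins, 3 of 4 were tested and none was called in apex over base, against 11.8% of all genes tested. By limma, 2 of the 3 had an unadjusted p under 0.05. For all 3 every apex library lay above every base library, as for 20.7% of all genes tested. *CDH1*, E-cadherin of epithelia (ENSGALG00000000608, chr11:19093979-19155777), had 111, 85.7 and 103 FPKM in the apex, 109.7, 73.4 and 107 FPKM in the middle and 73.2, 65.4 and 85.3 FPKM in the base. Its log2 fold change was 0.42 ± 0.17 SE, adjusted p = 0.119, with adjusted p = 0.00721 with the block and a ratio of 1.34, below 1.5. *CDH2*, N-cadherin of neural and sensory cells (ENSGALG00000015132, chr2:105084273-105197912), had 63, 63.2 and 61.2 FPKM in the apex, 52.9, 60.9 and 54.4 FPKM in the middle and 55.7, 52.1 and 61 FPKM in the base, and varied little (log2 fold change 0.15 ± 0.08 SE, adjusted p = 0.200). *CDH4*, R-cadherin (ENSGALG00000005102, chr20:7546069-7840288), had 20.6, 19.4 and 19.8 FPKM in the apex, 25.3, 22.6 and 22.6 FPKM in the middle and 16.7, 15.1 and 18 FPKM in the base, and the middle libraries were the highest. In middle over base its adjusted p was 0.0150 and its ratio 1.42. The locus of *CDH1* is shared with other genes in the table, as that of *CLDN3* is.

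Type II cadherins moved in both directions. Of 12 genes, 10 were tested, and 2 rose and 2 fell in apex over base (40% called, against 11.8% of all genes tested), while their summed FPKM, which *CDH11* dominated, was 387, 355 and 316 in the apex, 428, 435 and 366 in the middle and 539, 494 and 459 in the base. *CDH11*, a cadherin of mesenchyme and bone-forming cells and the most abundant cadherin here (ENSGALG00000039985, chr11:12275000-12354154), had 267, 209 and 209.8 FPKM in the apex, 304, 268 and 243 FPKM in the middle and 408, 349 and 335 FPKM in the base. Every base library lay above every apex and middle library, and the log2 fold change of apex over base was -0.67 ± 0.13 SE, adjusted p = 0.00816, with a ratio of 0.628. Without base 1 the ratio was 0.669, short of the threshold. The mesenchyme list had 3 of 12 genes lower and 1 higher in the apex, beside 4.66% and 7.15% of all genes tested. Its sums were 4492, 4115 and 3561 in the apex, 4634, 4510 and 3637 in the middle and 5666, 5153 and 4722 in the base. Apex and middle sums overlapped. The cartilage list was lower as given above. The part of either list in the difference was not tested.

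*CDH19* and *CDH7* are neighbours on chromosome 2, 261 kb apart with no gene between them, and both are known from cells of the neural crest. *CDH19* (ENSGALG00000013775, chr2:95483121-95558733) had 50.5, 54.1 and 40.8 FPKM in the apex, 59, 69.9 and 54.4 FPKM in the middle and 75.7, 83.9 and 63.3 FPKM in the base, and within each replicate number the apex was the lowest and the base the highest. It fell in apex over base (log2 fold change -0.61 ± 0.14 SE, adjusted p = 0.0177), although the call was lost without apex 3, base 1 or base 2 (adjusted p up to 0.0655). *CDH7* (ENSGALG00000013782, chr2:95819538-95897002) had 32.5, 52 and 30.7 FPKM in the apex, 32, 53.5 and 35.6 FPKM in the middle and 22.5, 29 and 30.2 FPKM in the base, with replicate 2 far above the others in apex and middle. Its log2 fold change was 0.45 ± 0.24 SE, adjusted p = 0.222, and with the block adjusted p = 0.0359 at a ratio of 1.41, below 1.5. The Schwann cell list, *CLDN19* and *CDH7* were higher in every apex library than in every base library, whereas *CDH19* was lower in every one.

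The remaining type II cadherins that moved were low in level and are known from the nervous system. *CDH8* (ENSGALG00000005319, chr11:12984674-13144905) had 3.23, 2.65 and 3.85 FPKM in the apex, 2.58, 2.28 and 4.5 FPKM in the middle and 0.790, 0.916 and 1.67 FPKM in the base, with both apex and middle above the base, and rose by a ratio of 2.88 (log2 fold change 1.01 ± 0.23 SE, adjusted p = 0.0166). *CDH12* (ENSGALG00000012941, chr2:73245203-73614065) had 1.09, 1.02 and 1.14 FPKM in the apex, 0.363, 0.503 and 0.447 FPKM in the middle and 0.308, 0.188 and 0.234 FPKM in the base, so the apex libraries stood clear of the middle as well as of the base. It rose by a ratio of 4.45, the highest of the members (log2 fold change 0.75 ± 0.14 SE, adjusted p = 0.00828), on the scale of log2(FPKM + 1), which understates changes at such levels. *CDH12* had the lowest adjusted p in apex over middle among members whose mean FPKM differed by 1.5 times or more (log2 fold change 0.54 ± 0.14 SE, adjusted p = 0.261), and it was called there without a filter on low values (adjusted p = 0.0368) or without the intensity trend (0.0482). *CDH10* (ENSGALG00000032022, chr2:72373714-72468691) had 0.712, 1.17 and 1.31 FPKM in the apex, 0.617, 1.08 and 1.07 FPKM in the middle and 0.297, 0.478 and 0.549 FPKM in the base, did not pass in the main fit (adjusted p = 0.0816), and passed with the block (0.0194). It was also called in apex over base without a filter on low values or without the intensity trend. Of the region means of *CDH12* and *CDH10*, only those of the apex (1.08 and 1.06 FPKM) reached the filter of 1 FPKM. Both thus entered the test through the region where they were higher. *CDH8* missed the threshold without apex 3, base 1 or base 2 (adjusted p up to 0.0658). *CDH8* lies 631 kb from *CDH11* on chromosome 11, and these neighbours moved in opposite directions.

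**Figure D4:**
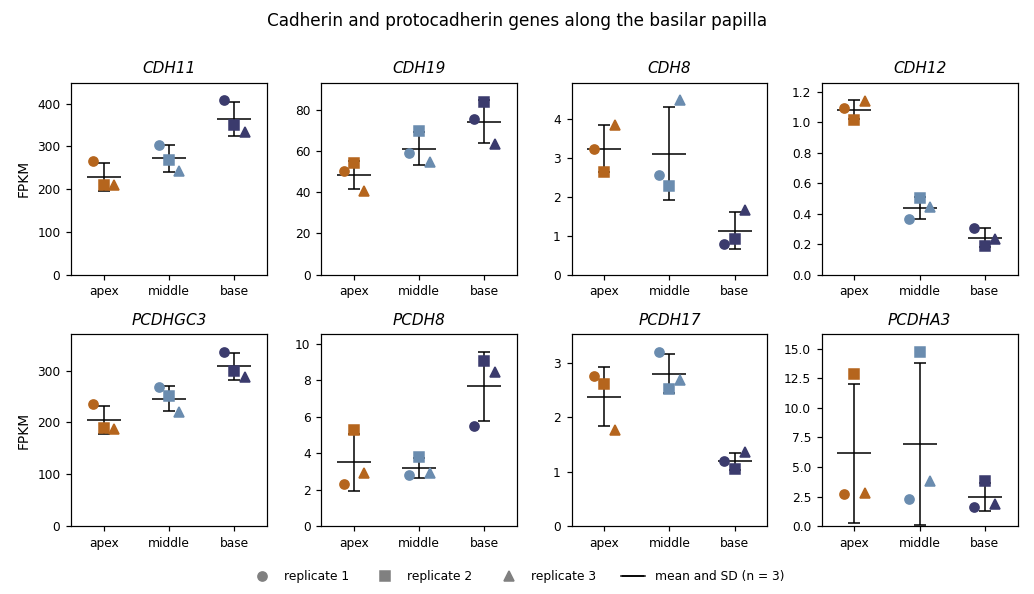
FPKM of 4 cadherin and 4 protocadherin genes in apex, middle and base; symbols mark the replicates, and black bars show the mean and SD of 3 libraries. *CDH11*, *CDH19*, *PCDHGC3* and *PCDH8* are lowest in apex or middle and highest in the base, *CDH8*, *CDH12* and *PCDH17* are lowest in the base, and the squares of *PCDHA3* show replicate 2 above the other replicates in each region.

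Protocadherins outside the clusters were all tested, and 1 of 8 rose and 1 fell in apex over base, where 7.15% of all genes tested were called higher and 4.66% lower. *PCDH18* had the highest level (ENSGALG00000009732, chr4:28880217-28890136) and was not called, with 28.8, 23.7 and 21.2 FPKM in the apex, 27.4, 25.1 and 20.4 FPKM in the middle and 35.8, 30.1 and 25.4 FPKM in the base (log2 fold change -0.30 ± 0.16 SE, adjusted p = 0.225). With the block its adjusted p was 0.0036 at a ratio of 0.807, a change of less than 1.5 times. *PCDH8*, paraxial protocadherin (ENSGALG00000036258, chr1:165685515-165689031), had 2.3, 5.29 and 2.92 FPKM in the apex, 2.8, 3.81 and 2.93 FPKM in the middle and 5.49, 9.08 and 8.43 FPKM in the base. It fell in apex over base to a ratio of 0.457 (log2 fold change -0.97 ± 0.25 SE, adjusted p = 0.0264), and the lowest base library was close to the highest apex library. The call was lost without apex 1, apex 3, base 2 or base 3 (adjusted p up to 0.0921). *PCDH17* (ENSGALG00000016941, chr1:163446840-163527123) had 2.76, 2.61 and 1.76 FPKM in the apex, 3.2, 2.52 and 2.68 FPKM in the middle and 1.19, 1.04 and 1.35 FPKM in the base, and the middle held the highest value. It rose in apex over base (log2 fold change 0.61 ± 0.15 SE, adjusted p = 0.0215), and the call was lost without apex 1, apex 2, base 1 or base 2 (adjusted p up to 0.0739). *PCDH19*, a protocadherin linked to epilepsy in humans, had 5.42, 5.07 and 4.77 FPKM in the apex, 6.46, 5.79 and 5.05 FPKM in the middle and 7.78, 6.65 and 6.95 FPKM in the base, with adjusted p = 0.0211 and a ratio of 0.714, which is a change of less than 1.5 times. *PCDH7* (8.71 FPKM on average) had a log2 fold change of -0.42 ± 0.20 SE, adjusted p = 0.161.

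Clustered protocadherins give neurons their combinatorial surface identity, and their genes lie in tandem with shared constant exons, so that values of single genes are uncertain. *PCDHGC3*, of the gamma cluster (ENSGALG00000028565, chr13:1828640-1876670, a locus shared with other genes), was the third highest member of all and had 235, 189.6 and 188 FPKM in the apex, 268, 251 and 219.6 FPKM in the middle and 337, 300.3 and 288 FPKM in the base. It fell in apex over base (log2 fold change -0.60 ± 0.12 SE, adjusted p = 0.00832) with a ratio of 0.662, just past the threshold. Without apex 2, apex 3 or base 1 the ratio was between 0.686 and 0.695, which ended the call at an adjusted p of at most 0.0379. *PCDHA3*, of the alpha cluster (ENSGALG00000043142, chr13:704847-869303), had 2.74, 12.9 and 2.79 FPKM in the apex, 2.25, 14.7 and 3.79 FPKM in the middle and 1.62, 3.85 and 1.9 FPKM in the base. Replicate 2 was on average 4.17 times the mean of the others. The neuron list was highest in replicate 2 as well, and its part in the values was not tested. Within each replicate number, *PCDHA3* was higher in the apex than in the base, and it was called with the block (adjusted p = 0.0422) but not without it (0.434).

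None of the 8 genes grouped as catenins was called in apex over base, against 11.8% of all genes tested. By limma, 4 of the 8 had an unadjusted p under 0.05. All 8 were grouped by the *CTNN* prefix alone, so some of their products may not bind cadherins. *CTNNB1*, beta-catenin, which also carries the Wnt signal, was the highest of the 66 genes (ENSGALG00000037203, chr2:43601202-43622660). It had 384, 365 and 349 FPKM in the apex, 424, 429 and 383 FPKM in the middle and 572, 521 and 499 FPKM in the base, so all base libraries lay above all others, and adjusted p was 0.00354 at a ratio of 0.689. *CTNND2*, delta-catenin of neurons, had 26.6, 23.3 and 24.4 FPKM in the apex, 28.3, 26.9 and 25.6 FPKM in the middle and 33.8, 32.3 and 33.2 FPKM in the base, with adjusted p = 0.00444 and a ratio of 0.748. *CTNNA1*, alpha-catenin (ENSGALG00000002447, chr13:2590011-2698188), had 166, 148 and 151 FPKM in the apex, 172, 161 and 155 FPKM in the middle and 188, 169.8 and 176 FPKM in the base (log2 fold change -0.20 ± 0.07 SE, adjusted p = 0.0933). With the block its adjusted p was 0.0119 at a ratio of 0.872. *CTNND1*, p120-catenin (ENSGALG00000007330, chr5:16911791-17004311), had 46.5, 46 and 49.99 FPKM in the apex, 48.2, 46.7 and 48.5 FPKM in the middle and 49.1, 48.6 and 57.2 FPKM in the base (log2 fold change -0.12 ± 0.07 SE, adjusted p = 0.310). The loci of *CTNNA1*, *CTNND1*, *CTNND2* and *CDH8* are shared with other genes in the table. Summed catenin FPKM was 714, 669 and 666 in the apex, 761, 744 and 704 in the middle and 925, 852 and 849 in the base, a ratio of 0.781 ± 0.0492 SD in apex over base, of which *CTNNB1* made up 53.5, 55.9 and 60.6% in apex, middle and base.

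The desmosomal genes tested were *DSG2* and *DSP*, which differed in pattern. *DSG2*, desmoglein 2, the desmosomal cadherin of simple epithelia (ENSGALG00000015142, chr2:106423071-106443930), had 30.03, 22.8 and 30.3 FPKM in the apex, 29.2, 18.4 and 32.6 FPKM in the middle and 14.2, 13.3 and 19.9 FPKM in the base. It rose in apex over base (log2 fold change 0.78 ± 0.23 SE, adjusted p = 0.0386), and the order of the libraries followed that of *CLDN1* and *CLDN8* in that middle 2 was the lowest of its region. The call was lost without apex 1, apex 3, base 1 or base 2 (adjusted p up to 0.126). *DSP*, desmoplakin, which binds intermediate filaments to desmosomes (ENSGALG00000012790, chr2:64734311-64763088), had 11.7, 14.1 and 10.9 FPKM in the apex, 9.16, 7.94 and 8.61 FPKM in the middle and 15.1, 14.5 and 18.9 FPKM in the base. Here the middle was the lowest region and stood apart from both others, and *DSP* fell in middle over base (log2 fold change -0.84 ± 0.12 SE, adjusted p = 0.0105) while apex over base did not pass (log2 fold change -0.37 ± 0.12 SE, adjusted p = 0.0610). *DSG1*, 18.8 kb from *DSG2* and typical of skin, reached at most 0.0361 FPKM in any library.

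Between middle and base, 7 of the 50 genes were called (14%), 4 higher and 3 lower, against 4.39% of all genes tested (2.93% higher and 1.46% lower). *CDH8* (log2 fold change 0.94 ± 0.23 SE, adjusted p = 0.0439), *CLDN2* (log2 fold change 1.02 ± 0.16 SE, adjusted p = 0.0126), *PCDH17* (log2 fold change 0.79 ± 0.15 SE, adjusted p = 0.0213) and *CLDN19* (log2 fold change 0.75 ± 0.17 SE, adjusted p = 0.0319) rose. *CLDN11* (log2 fold change -1.03 ± 0.17 SE, adjusted p = 0.0153), *PCDH8* (log2 fold change -1.03 ± 0.25 SE, adjusted p = 0.0423) and *DSP* fell. With the block, *CLDN3*, *CLDN8*, *CLDN23*, *DSG2* and *PCDHA3* were called as well, all higher in the middle, which gave 9 higher and 3 lower, 12 in all, against 9.87% of all genes in that fit (7.63% higher and 2.25% lower). The middle and base libraries did not overlap for 12 genes in the direction of the middle and 11 in the direction of the base (14.1% and 16.6% of all genes). The number of calls was 13 without middle 2 (5.31% of all genes tested), 1 without middle 3 (0.544%), 2 without base 1 (0.981%) and 2 without base 2 (0.636%), so calls over all genes moved the same way, and it was 5 or 6 without each of the other libraries (2.97% to 4.52%). *CLDN2* lost its call only without base 2 (adjusted p = 0.0512), *DSP* only without middle 3 (0.0519), *CLDN11* without middle 3 or base 1 (up to 0.0662), *PCDH17* without middle 3, base 1 or base 2 (up to 0.0820), *CLDN19* without apex 1, middle 2, middle 3, base 1, base 2 or base 3 (up to 0.122), *PCDH8* without apex 3, middle 1, middle 3, base 1, base 2 or base 3 (up to 0.141) and *CDH8* without apex 1, apex 2, apex 3, middle 1, middle 3, base 1 or base 2 (up to 0.156). A fit without a filter on low values ended the calls of *CDH8* (adjusted p = 0.0556) and *PCDH8* (0.0596), and quantile normalization that of *CDH8* (0.0547). With only the 6 libraries compared, *CDH8* (adjusted p = 0.0918), *CLDN11* (0.0520), *PCDH8* (0.0520) and *CLDN19* (0.0516) were not called. This comparison shares the base libraries with apex over base.

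Between apex and middle, 0 of the 50 genes were called by limma without or with the block, and 6 had an unadjusted p under 0.05. Of all genes tested, 0.0613% were called without the block (0.046% higher and 0.0153% lower) and 2.11% with it (1.43% higher and 0.682% lower). The libraries of apex and middle did not overlap for 3 genes higher and 3 lower in the apex (6.78% and 6.07% of all genes). The trend rules of the study ask for a call in some comparison, an apex to base ratio of at least 1.5 and steps of at least 0.85. For Down-trend the ratios are inverted. By these rules, 9 members were Up-trend toward the apex and 5 were Down-trend, against 7.03% and 4.61% of all genes tested. *CLDN3*, *ILDR1*, *CDH10* and *PCDHA3* met the Up-trend ratios but were not called without the block. The Up-trend members were the 10 genes called higher in apex over base except *PCDH17*, whose apex mean (2.38 ± 0.542 FPKM) was under 0.85 of its middle mean (2.8 ± 0.358 FPKM), and the Down-trend members were the 5 called lower. With the block, 13 members were Up-trend and 5 Down-trend, against 9.15% and 5.36% of all genes tested. Without base 1 or base 2, 3 members were Up-trend and 2 or 3 Down-trend, and without apex 3, 4 were Up-trend and 2 Down-trend. Over all genes, 569 and 621 were Up-trend and 413 and 513 Down-trend without base 1 and base 2. Without apex 3 these counts were 632 and 465, beside 917 and 601 with all libraries.

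Same-numbered libraries from the 3 regions deviated together over all genes tested, and the junction genes went either way, as genes in general did. Replicate 2 was the highest library of its region in all 3 regions for 7 of the 50 genes (13.2% of all genes tested) and the lowest in all 3 for 9 (13.5%). Both counts were near these shares, so they do not set the members apart. Those highest in replicate 2 were *PCDHA3*, *CDH18* (2.95 times the mean of the other replicates), *CTNNA3*, *CLDN19*, *CDH19* (1.21 times), *CDH5* (1.18 times) and *PCDH8*. The lowest included *CLDN8* (0.614 times), *CLDN3* (0.615 times), *DSG2* (0.697 times), *PCDH10* (0.709 times) and *CLDN1* (0.719 times). They also included *CDH1*, *TJP3* (0.857 times) and *CTNND1* (0.943 times). In the same replicate the sums for neurons, Schwann cells and ion-transporting epithelium were the highest of each region. Supporting cell and red blood cell sums were the lowest of each region. The epithelium sums were the lowest in apex and middle (303, 258 and 321 in the apex, 273, 156 and 294 in the middle and 156, 159 and 227 in the base). What part any of these lists had in the replicate 2 values was not tested.

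**Figure D5:**
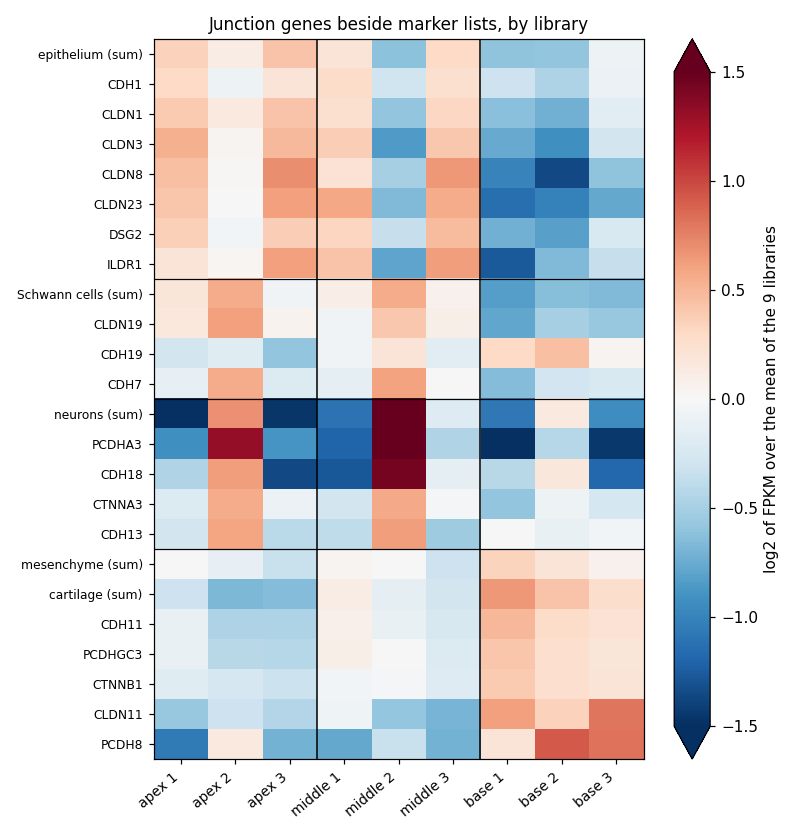
Log2 of each FPKM value over the mean of the 9 libraries, for 4 groups of junction genes below the summed marker lists set beside them; columns are the libraries of apex, middle and base. Genes were placed beside a list after their values were seen. *CLDN1*, *CLDN3*, *CLDN8*, *CLDN23* and *DSG2* are blue in the base and in middle 2. *CLDN2*, also known from epithelia, is not drawn and was highest in middle 2 (5.14 FPKM). *CLDN19*, *CDH7* and *PCDHA3* are red in apex 2 and middle 2 and blue in base 2. In the same groups, *CDH19* is blue in apex 2 and red in base 2, and *CDH18* is red in base 2 as well. Values past the ends of the scale are drawn in its end colours.

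The known binding partners of these junctions are set here against the 11.8% of all genes tested that were called in apex over base, a share against which such short lists were not tested. Of 13 tested genes for linkers and partners of adherens junctions, 0 rose and 1 fell in apex over base: *CADM1*, an adhesion molecule of the immunoglobulin family, had 54.8, 43.7 and 54.8 FPKM in the apex, 66.8, 58.9 and 56.9 FPKM in the middle and 97.8, 78 and 97.2 FPKM in the base (log2 fold change -0.82, adjusted p = 0.00276). Of 18 tested partners of tight junctions, 0 were called without the block (limma; 9 had an unadjusted p under 0.05), and cingulin, *CGN*, which binds ZO proteins, was called with it. *CGN* had 32, 26.2 and 34.4 FPKM in the apex, 31.7, 22.4 and 35.9 FPKM in the middle and 19.5, 14.2 and 23.8 FPKM in the base, adjusted p = 0.0518 without the block and 0.000357 with it. Of 5 desmosome partners, periplakin, *PPL*, fell in apex over base with 43.2, 32.9 and 32.1 FPKM in the apex, 49.3, 32.9 and 33 FPKM in the middle and 75.2, 62.4 and 60.3 FPKM in the base (log2 fold change -0.86, adjusted p = 0.0107), and plakophilin 3, *PKP3*, was called higher only with the block (adjusted p = 0.0289, against 0.0819 without it).

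Among 11 other genes with cadherin repeats, 1 rose and 1 fell in apex over base, beside 7.15% and 4.66% of all genes tested. *CELSR1*, which acts in planar cell polarity, had 10.1, 8.03 and 11 FPKM in the apex, 8.07, 5.52 and 9.13 FPKM in the middle and 3.98, 4.01 and 5.79 FPKM in the base, and rose with a log2 fold change of 0.94 (adjusted p = 0.0107). *FAT4*, a giant cadherin that pairs with *DCHS1*, had 4.29, 4 and 4.42 FPKM in the apex, 6.2, 6.3 and 6.01 FPKM in the middle and 9.74, 9.68 and 9.97 FPKM in the base, with narrow spread within each region and no overlap between any regions. It fell in apex over base (log2 fold change -1.04, adjusted p = 0.000339) and in middle over base (log2 fold change -0.59, adjusted p = 0.00716). *RET*, the receptor tyrosine kinase with cadherin-like repeats, was called higher in middle over base, with 13.3, 14 and 17 FPKM in the apex, 20.5, 20.4 and 26 FPKM in the middle and 9.46, 8.72 and 15.4 FPKM in the base (log2 fold change 0.96, adjusted p = 0.0256). With the block it was also called lower in apex over middle (log2 fold change -0.56, adjusted p = 0.0264, against 0.425 without it). *FAT2* and *CLSTN2* were called higher in the apex only with the block (adjusted p = 0.0423 and 0.00400).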

How the data were processed

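RNA of 9 libraries (apex, middle and base, replicates 1 to 3) was enriched with oligo-dT by a kit that does not mark the strand and read as paired ends of 101 bp. The authors aligned reads to galGal5 with STAR 2.5.4b and the Ensembl release 91 annotation and computed with Cuffdiff 2.2.1 the FPKM values that they deposited. The scaling between libraries was not given in the sources used here. FPKM holds no read counts, so no counting interval was computed. Coordinates count from 1 in galGal5, and 11868 of 24880 genes had no symbol, so a member without one could not be found. Columns of other samples numbered 0. A RefSeq gene table of another assembly and protein or DNA sequences were not used here.

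Libraries were grouped by their titles. Using limma 3.58.1 (R 4.3.3) with an intensity trend, a linear model with a term for region was fitted to log2(FPKM + 1) of the 9 libraries. The two-sided test covered genes whose mean FPKM reached 1 in some region, and p-values were adjusted over all of them by the method of Benjamini and Hochberg. The pseudocount of 1 makes the printed log2 fold changes of low genes too small. SDs of ratios of sums were propagated from the SDs of both regions, which treats the regions as independent and leaves out the pairing by replicate number. limma replaced the count test of Cuffdiff, which needs the alignments. The replicate number was added as a block in another fit. Deviations from the region means of same-numbered libraries correlated at 0.368 to 0.660 (9 pairs), so the numbers were taken to pair the samples. Those of other libraries correlated at -0.520 to 0.151 (18 pairs). Deviations cancel out within a region, so the correlations of other libraries are not independent of those of same-numbered ones. The pairing comes from the titles, and the methods do not state that same-numbered libraries share chickens.

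The members, gene lists and alternatives were chosen with earlier results of these data known, so counts over them are descriptions. Named with values were the members called in any comparison, without or with the block, and the 3 highest tested genes of each family. The main catenins, type I cadherins and tight junction genes were named too. For this choice, 5 other cadherins were joined to the type II cadherins. Of these 5, 1 was tested (*CDH13*), and it was not called. *CLDND1*, *CLDN12*, *CLDN14*, *CLDN18*, *CDH5*, *CDH13*, *CDH18*, *PCDH10*, *CTNNA3*, *CTNND2* and *DSG1* were named after their values were seen. A member and a marker gene are not reported here by name or in the plots of genes, though counts and sums include them. The scripts were tested on simulated data. Alternatives were a pseudocount of 0.1, no filter, 1 FPKM required in 6 libraries or more, median-ratio scaling, quantile normalization, no intensity trend, the replicate block, the 6 libraries compared alone, other fold criteria, and fits without each library or each replicate number. Figures were drawn with matplotlib 3.10.9.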

Additional observations from a re-analysis of the deposited data

How the results depend on the processing

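The 35 genes chosen by the naming rules above include the member not named here and leave out those named after their values were seen. For these 35, no alternative reversed the direction of a called difference between apex and base. With the replicate block, 19 members were called in apex over base and 12 in middle over base, 0 in apex over middle, and the block changed no call of a member other than those given in the report. The number of members called in apex over base ranged from 5 to 17 over fits without one library (7.63% to 12.9% of all genes tested). It was 3, 10 and 6 without replicate numbers 1, 2 and 3 (4.76%, 9.55% and 7.1% of all genes). With a ratio of at least 2 it was 8, and no share of all genes was computed for that criterion. In middle over base it ranged from 1 to 13 without one library (0.544% to 5.31% of all genes) and was 3 with only the 6 libraries compared (1.53%). It was 0, 3 and 0 without replicate numbers 1, 2 and 3 (0%, 0.921% and 0.576% of all genes). In apex over middle it was 1 without a filter on low values (0.0727% of all genes) and 1 without the intensity trend (0.0997%). Up-trend members ranged from 3 to 11 without one library and were 0 and 5 without replicate numbers 1 and 3. Over all genes, 569 to 1018 were Up-trend without one library and 235 and 575 without these numbers, beside 917 in the main fit. Down-trend members ranged from 2 to 5 without one library, were 2, 3 and 1 without numbers 1, 2 and 3, and were 2 with a ratio of at least 2. Over all genes, 413 to 627 were Down-trend without one library and 375, 438 and 345 without these numbers, beside 601 in the main fit. Fits without a library or a replicate number rest on fewer samples and had no block. Quantile normalization gave 12 calls in apex over base (11.3% of all genes). Family ratios of apex over base moved by less than their SD under both scalings, but this SD leaves out the pairing by replicate number. Under quantile normalization, catenins, type II cadherins and clustered protocadherins reached 0.801, 0.733 and 0.709. In the FPKM values as deposited, their highest ratios within a replicate number were 0.786, 0.719 and 0.702. Median-ratio scaling gave a family ratio of 0.788 for catenins. Since FPKM carries no depth, the precision of the lowest genes, such as *CDH12* and *CDH10*, is known only from the spread of 3 libraries.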

Other observations

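The 16 members that were not tested had mean FPKM over the 9 libraries between 0 and 0.733, and the highest value of any of them in one library was 1.39. That value belongs to *CDH17*, liver-intestine cadherin of mammals, which had 0.451, 1.39 and 0.483 FPKM in the apex, 0.392, 0.385 and 0.417 FPKM in the middle and 0.448, 1.39 and 0.443 FPKM in the base, so that apex 2 and base 2 stood above the other 7 libraries while middle 2 did not. *CDH22*, a cadherin known from brain, had 0.267, 1.02 and 0.240 FPKM in the apex, 0.322, 0.921 and 0.251 FPKM in the middle and 0.182, 0.477 and 0.201 FPKM in the base, with replicate 2 the highest library of every region. These genes were chosen after their values were seen, and no test was made.

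The other marker lists give the setting of these pieces. Of 9 supporting cell genes tested, 6 rose in apex over base, and their sums were 2681, 2473 and 3428 in the apex, 2984, 2134 and 4081 in the middle and 1075, 952 and 1696 in the base. Of 13 hair cell genes, 10 rose. Of 12 neuron genes, 0 were called by limma without the block, with 3 at an unadjusted p under 0.05, and 1 was higher and 1 lower with it. Of 9 macrophage genes, 0 rose and 1 fell, with sums of 288, 251 and 298 in the apex, 337, 263 and 337 in the middle and 337, 371 and 378 in the base. The 7 genes for ion-transporting epithelium had sums of 619, 919 and 621 in the apex, 421, 553 and 525 in the middle and 355, 493 and 474 in the base, and 1 rose. Red blood cell sums were 809, 407 and 3635 in the apex, 696, 281 and 1073 in the middle and 362, 306 and 606 in the base, highest in apex 3, and 0 of the 1 gene tested was called by limma without the block (0 at an unadjusted p under 0.05). The part of any of these lists in the values of junction genes was not tested.

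Neighbouring members did not always move alike. *CLDN17* and *CLDN8* on chromosome 1 both rose in apex over base. *CLDN16* and *CLDN1* on chromosome 9 lie 12.0 kb apart with no gene between them, but *CLDN16* had a mean of 0.0499 FPKM against 92.1 FPKM for *CLDN1*. *CLDND1* and *ILDR1* lie 29.2 kb apart with other genes between them, with log2 fold changes of -0.17 and 0.75.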
